A study of Mus musculus with 6 samples.

Results

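The Zfp genes are mouse genes named for zinc finger proteins. All symbols made of Zfp, a number and optional small letters were taken from a table of 12331 genes, without Zfp42 and Zfp296, which left 295 genes. They were chosen by name, so they share a naming history rather than 1 function. The naming rule used no expression value, but it was set with earlier results of these data known. Their transcripts were measured in 6 RNA-seq libraries of E14tg2a, a long-established line of mouse embryonic stem cells, kept in medium with serum and the cytokine LIF. In 3 libraries the cDNA was tagmented: a hyperactive Tn5 transposase cut it and added the adaptors at once. In the other 3 it was sheared by sonication and ligated to adaptors. Neither group carried a treatment, and each method had the replicate numbers 1, 2 and 3. Per the protocols, each cDNA was made from 10 pg of total RNA extracted from a culture, an amount that stands in for a single cell, and was amplified with 20 PCR cycles. The label also speaks of a single-cell lysate, but no cell was isolated according to the protocol. As the RNA came from a culture, many cells with little of a transcript and few cells with much of it cannot be told apart.

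Most Zfp proteins carry fingers of the C2H2 type, in which a pair of cysteines and a pair of histidines hold a zinc ion and a short helix reads bases of DNA. In the large KRAB subfamily, a repeat array of such fingers picks a DNA sequence, often within a transposable element, and the KRAB domain recruits the corepressor Trim28 (also called KAP1). Trim28 in turn brings the histone methyltransferase Setdb1 and heterochromatin proteins, a pathway that keeps retroviral elements silent in embryonic stem cells. Other genes with the same kind of name encode RNA-binding proteins, ribosome maturation factors, ubiquitin ligases and spindle proteins, in which zinc fingers serve other ends.

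The repeat unit that marks the array class is shown here for 5 genes on which results below turn. Zfp354a was found in number 1 and Zfp647 mainly in number 3, Zfp534 and Zfp868 were found after sonication and not after tagmentation in numbers 2 and 3, and Zfp617 was the one gene called higher after tagmentation when the number was a block. Each unit is 84 bases of the coding strand, taken from the last exon of the GENCODE transcript. Capitals mark the 5 codons of the linker that joins neighbouring fingers, and the cysteine and histidine codons read in frame.
Zfp354a (GRCm38 chr11:51069996-51070079, plus strand): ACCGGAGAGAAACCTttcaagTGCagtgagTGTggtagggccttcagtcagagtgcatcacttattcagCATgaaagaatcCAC
Zfp647 (GRCm38 chr15:76911787-76911870, minus strand): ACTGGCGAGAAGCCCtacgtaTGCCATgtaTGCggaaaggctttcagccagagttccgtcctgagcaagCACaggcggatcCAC
Zfp534 (GRCm38 chr4:147675257-147675340, minus strand): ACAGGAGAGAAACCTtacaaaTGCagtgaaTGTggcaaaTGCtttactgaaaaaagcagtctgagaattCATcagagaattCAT
Zfp868 (GRCm38 chr8:69611735-69611818, minus strand): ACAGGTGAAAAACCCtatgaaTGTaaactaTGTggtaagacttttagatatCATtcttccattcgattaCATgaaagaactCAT
Zfp617 (GRCm38 chr8:71932479-71932562, plus strand): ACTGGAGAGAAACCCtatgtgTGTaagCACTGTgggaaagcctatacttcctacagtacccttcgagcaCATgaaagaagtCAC
Between these units, 48.8% (Zfp647 and Zfp617) to 67.9% (Zfp617 and Zfp868) of the bases were identical. Such likeness bears on counting. Of the 31-base words in its GENCODE transcripts, Zfp534 shared 83.0% with transcripts of other genes, Zfp617 46.6%, Zfp354a 30.0%, Zfp868 10.2% and Zfp647 0%. Over all matched Zfp genes the median shared portion was 1.29%, and 68 genes shared more than 10%. How the authors counted reads with several matches is not given in the sources used here, so the levels of Zfp534, Zfp617 and Zfp354a are uncertain.

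The linker was searched as the motif ACNGGNGANAANCC, in frame and on the coding strand only, in the coding sequences of GENCODE (GRCm38). Of the 295 Zfp genes, 293 matched a coding gene, 284 by the same symbol and 9 by an older one. At least 1 linker was found in 204 of them (69.6%), against 284 of 21269 other coding genes (1.34%) and 488 of all 21562 (2.26%). The number of linkers ranged up to 18, with a median of 3.

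Genes with linkers had lower levels than genes without. Levels are given as RPKM, reads per kilobase of a gene's model, relative to the alignments of the library, a unit per length that allows genes to be compared. The median of the mean RPKM over the 6 libraries was 2.51 for 89 Zfp genes with no linker and 0.635 for 84 genes with 1 to 4. It was 0.115 for 91 genes with 5 to 9 linkers and 0.265 for 29 genes with 10 or more. Across these 293 genes, which share the same 6 libraries, the number of linkers and the mean RPKM had a Spearman correlation of -0.339, and coding length and mean RPKM one of -0.148. Of the genes without a linker, 73.0% reached 1 RPKM in at least 1 library and 20.2% in all 6. With 1 to 4 linkers it was 57.1% in at least 1 library and 8.3% in all 6, with 5 to 9 linkers 35.2% and 1.1%, and with 10 or more 51.7% and 3.4%. Among the 12 Zfp genes of highest mean level, 11 had no linker, and Zfp64 had 1. The median portion of shared 31-base words also grew with the number of linkers, 0.19%, 0.86%, 2.59% and 2.62% in the 4 classes, and its part in the order of levels was not tested.

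**Figure D1:**
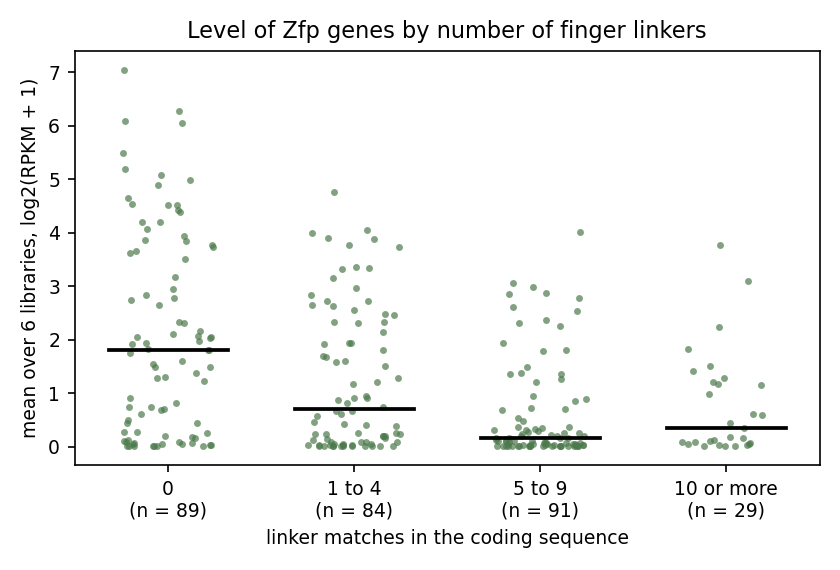
Mean level over 6 libraries, as log2(RPKM + 1), of 293 Zfp genes in 4 classes by the number of linker matches in the coding sequence. Each point is a gene and each line the median of its class, at 2.51, 0.635, 0.115 and 0.265 RPKM from left to right.

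The family as a whole was expressed at a low level. The median over the 295 genes of the mean RPKM was 0.477, against 3.41 over all 12331 genes, and 58.6% of Zfp genes but 36.4% of all genes stayed under 1 RPKM on average. Of the 295 genes, only Zfp207 had a mean above 100 RPKM, 34 lay from 10 to 100 and 87 from 1 to 10. Zfp42, left out by the naming rule, had a mean of 281 RPKM. At the median length that could be worked out from the steps between values of a gene (3451 bases), 1 read was worth 0.00836 to 0.0154 RPKM, and 3 reads 0.0251 to 0.0461. A gene listed at 0 can therefore have a level up to the value of 3 reads, and 1 RPKM lay far above it in every library. These limits cover counting error only, since PCR copies without molecular identifiers are not independent molecules.

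Detection at 1 RPKM differed widely between libraries. Of the 295 Zfp genes, 110, 59 and 68 reached 1 RPKM in tagmentation libraries 1 to 3, against 105, 75 and 93 in sonication libraries 1 to 3. These are 37.3%, 20.0% and 23.1% after tagmentation and 35.6%, 25.4% and 31.5% after sonication. Over all genes the corresponding shares were 55.0%, 48.3% and 44.0% after tagmentation and 55.2%, 51.5% and 49.3% after sonication. At this threshold number 1 gave the most Zfp genes with either method. Counting any value above 0 it gave the fewest. The counts were 195, 210 and 205 genes in tagmentation libraries 1 to 3. In sonication libraries 1 to 3 they were 201, 232 and 225. They include values below the worth of 1 read, such as 9.55e-17 RPKM for Zfp385c in tagmentation library 1. The order at 1 RPKM did not follow depth: the tagmentation libraries had 21007424, 34612028 and 34681566 alignments and the sonication libraries 30296557, 22002643 and 18852822. On average 79.0 ± 27.2 Zfp genes were at 1 RPKM after tagmentation and 91.0 ± 15.1 after sonication (SD, n = 3 each). The difference of -12.0 was smaller than the spread between libraries (two-sided exact permutation test, p = 0.6; the smallest p this design allows is 0.1). Within the numbers, the difference was 5, -16 and -25 genes, so tagmentation gave more in number 1 and fewer in numbers 2 and 3. At a threshold of 5 RPKM the mean difference turned to 3.33 (exact permutation p = 0.8).

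**Figure D2:**
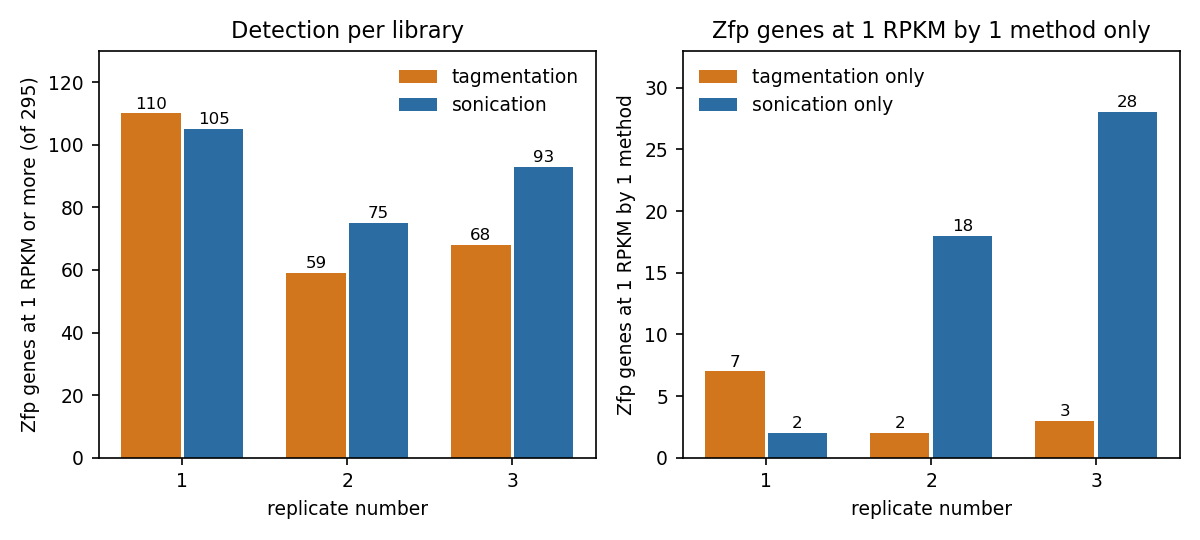
Left, bars give the number of Zfp genes at 1 RPKM or more in each library, by replicate number and method. Right, bars give the genes that reached 1 RPKM in only 1 library of a number, which were 7, 2 and 3 for tagmentation and 2, 18 and 28 for sonication.

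Few Zfp genes were found throughout. Only 28 (9.5%) were at 1 RPKM or more in all 6 libraries, against 29.6% of all genes, and 134 (45.4%) reached it in none, against 27.1%. All 56 Zfp genes found in exactly 2 libraries were found in both libraries of a single number. That number was 1 for 37 genes, 2 for 7 and 3 for 12. The corresponding patterns held for 10.1%, 4.2% and 2.6% of all genes, against 12.5%, 2.4% and 4.1% of Zfp genes. In 52 Zfp genes (17.6%, against 14.5% of all genes) the libraries of at least 1 number disagreed. Within bands of level the shares lay closer. Among genes with a mean of 10 to 100 RPKM, 61.8% of Zfp genes and 73.2% of all genes were found in all 6 libraries, and from 1 to 10 RPKM it was 6.9% and 14.0%.

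Tagmentation and sonication libraries of the same number agreed closely, and libraries of different numbers did not. Of the Zfp genes at 1 RPKM in either library of a number, 92.0% were at 1 RPKM in both for number 1, 74.0% for number 2 and 67.7% for number 3, a mean of 77.9% (SD 12.6, n = 3). For all genes the values were 95.2%, 89.5% and 82.7%. Pairs made with 1 method but different numbers shared 28.1% to 54.9% of their Zfp genes (mean 38.9%), and pairs that differed in both shared 30.1% to 47.4%. For all genes, pairs within a method shared 60.0% on average.

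The levels showed the same order. Over the 83 Zfp genes that reached 1 RPKM in 3 or more of the 6 libraries, Pearson's r of log2(RPKM + 1) was 0.969, 0.967 and 0.908 between the methods in numbers 1, 2 and 3. Within a method it was 0.114 to 0.587. These are descriptions across genes, which are not independent replicates. The median absolute log2 difference of these genes averaged 0.37 between libraries of a number and 1.51 between libraries of a method, close to 0.353 and 1.37 over all 6327 genes that met the same filter. For Zfp genes r within a method averaged 0.277, against 0.576 for those 6327 genes.

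**Figure D3:**
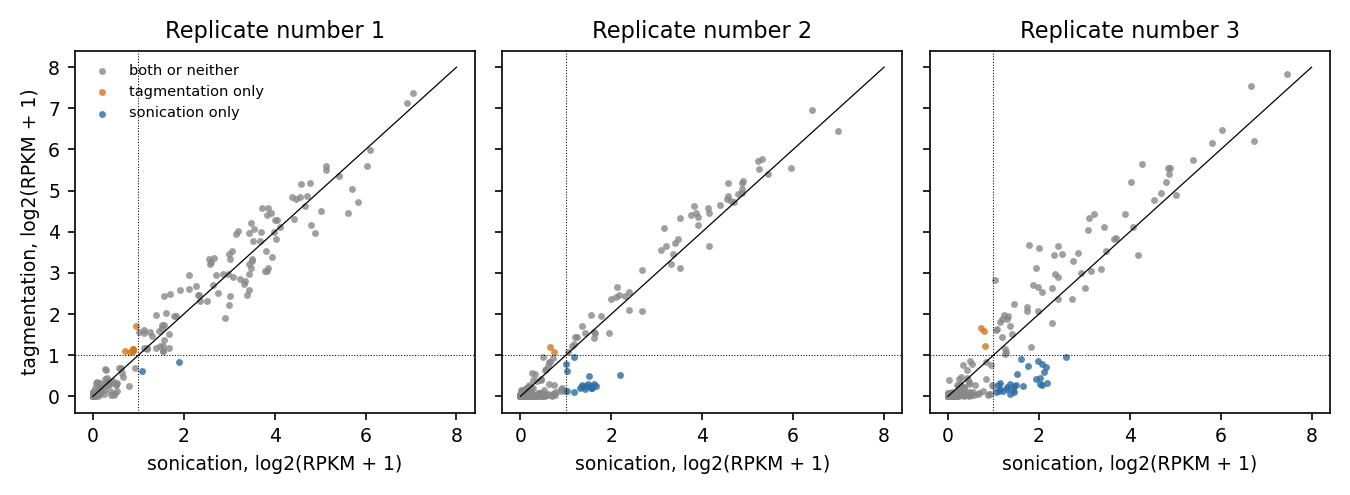
Level of each of the 295 Zfp genes after tagmentation (vertical axis) against sonication (horizontal axis), both as log2(RPKM + 1), with 1 panel per replicate number. The solid line marks equal levels and dotted lines 1 RPKM; the blue points, genes at 1 RPKM after sonication only, number 2, 18 and 28 from left to right and lie mostly far below the line in numbers 2 and 3.

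Most Zfp genes that could be tested differed in level between replicate numbers. With the method as a term, limma's F test called 77 of the 83 genes different between numbers (92.8%, Benjamini-Hochberg adjusted p under 0.05), against a background of 88.1% of the 6327 genes tested. The filter kept 83 Zfp genes and left out 212, among them the 56 found in a single number, whose contrast between numbers was therefore not tested there. Without a filter, 159 of the 295 Zfp genes (53.9%) and 67.0% of all genes were called. The replicates are technical, and each number has 1 library per method. The error of this test therefore came from how the difference between methods varied over the numbers, mostly in other genes. Of the 212 degrees of freedom behind each spread, 210 came from genes of like level. These p-values set the differences between numbers against that spread and not against a spread between cultures. Number 1 held the highest mean for 48 of the 83 genes (57.8%, against 39.7% of all tested genes), number 2 for 22 (26.5%, against 38.2%) and number 3 for 13 (15.7%, against 22.1%). Both methods named the same highest number for 66 of them (79.5%, against 84.6%). The number means lay at least 2 apart on the log2 scale for 54 genes (65.1%, against 58.5%).

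The 6 genes that were not called were Zfp207, Zfp106, Zfp593, Zfp281, Zfp534 and Zfp212. Zfp207 (BuGZ), which helps spindle assembly and the loading of Bub3 at kinetochores, had 164, 124 and 184 RPKM in tagmentation libraries 1 to 3, against 131, 84.6 and 100.4 RPKM in sonication libraries 1 to 3. It had the narrowest range of number means on the log2 scale (0.52) of the tested Zfp genes with a mean of 2 RPKM or more. The groups overlapped, although tagmentation gave the higher value within each number. Zfp511 was the second highest by its mean, but on the strength of 1 number, with 4.72, 23.9 and 228 RPKM after tagmentation and 5.73, 20.0 and 174 RPKM after sonication. Zfp821 had the widest range of number means (5.42) among these genes. In number 1 it was listed at 0 with either method. It had 41.3 and 28.5 RPKM in tagmentation libraries 2 and 3, against 42.5 and 31.4 RPKM in sonication libraries 2 and 3.

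**Figure D4:**
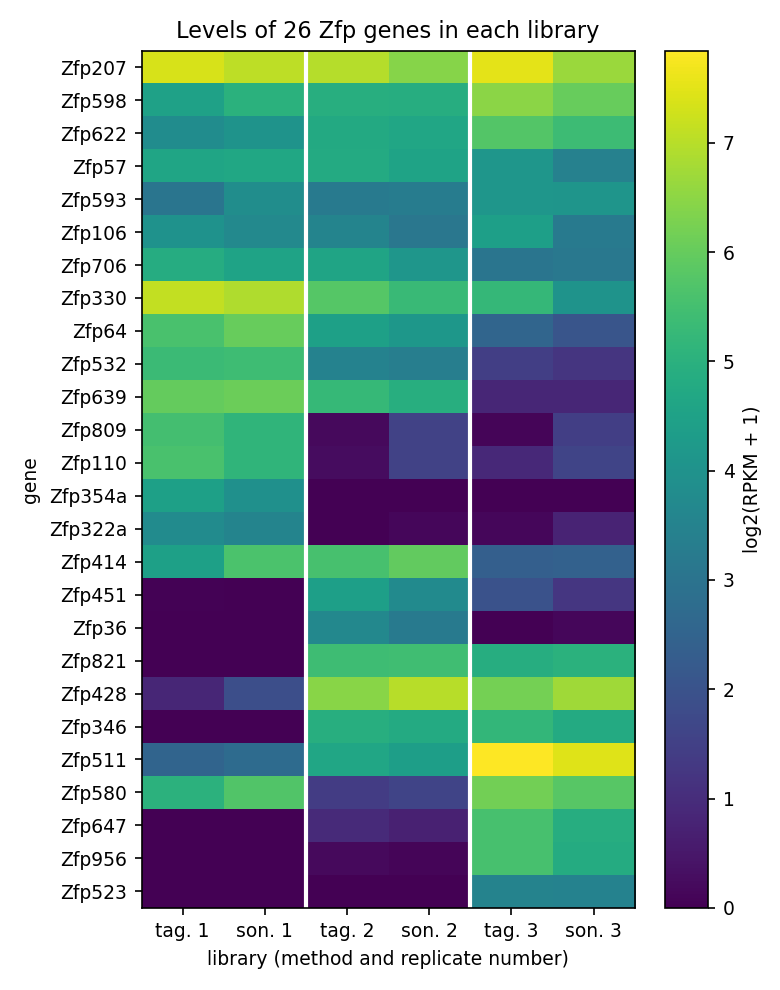
Level, as log2(RPKM + 1), of 26 Zfp genes (down the page) in the 6 libraries, ordered by replicate number with tagmentation left of sonication. Neighbouring columns of a number resemble each other; Zfp207 is bright in all 6 libraries, while Zfp354a is seen in number 1, Zfp36 in number 2 and Zfp523 in number 3.

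Of KRAB proteins with known silencing targets, 10 of the 12 listed were in the table and 6 could be tested. Between numbers 5 of these were called, against 88.1% of all tested genes, and between methods none. Zfp57, which keeps methylation at imprinted regions, had the highest mean of the list, with 23.7, 26.7 and 16.3 RPKM after tagmentation and 24.5, 22.5 and 9.84 RPKM after sonication. It was above 5 RPKM in every library, and the groups overlapped. Zfp809, which silences murine leukaemia proviruses at their primer binding site, had 44.6, 0.151 and 0.0773 RPKM after tagmentation, against 34.2, 1.92 and 1.73 RPKM after sonication. It was high in number 1, and in numbers 2 and 3 it passed 1 RPKM after sonication only. Zfp568, which represses a placental promoter of Igf2, had 8.85, 1.71 and 5.22 RPKM after tagmentation and 10.3, 1.36 and 3.86 RPKM after sonication, and followed the number in both. Zfp445, which also guards imprints, stayed under 1 RPKM in all 6 libraries, as did Zfp708 and Zfp429; all 31-base words of Zfp708 also occur in other genes. The median log2 fold change of the 6 tested genes was -0.18.

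The list of stem cell and cell cycle regulators held 10 genes, all in the table, Zfp57 among them, of which 6 could be tested. Between numbers 4 of them were called, against a background of 88.1%, and the median log2 fold change between methods was 0.16. Zfp706 had 27.8, 22.8 and 7.25 RPKM after tagmentation and 22.5, 16.4 and 7.81 RPKM after sonication, lowest in number 3 with either. Zfp281, a DNA-binding regulator of pluripotency, had 2.35, 0.153 and 0.191 RPKM after tagmentation, against 1.86, 1.97 and 2.15 RPKM after sonication. The sonication values were steady, whereas the tagmentation values were low in numbers 2 and 3. Zfp322a, a factor reported to support pluripotency in mouse, had 12.7, 0.0119 and 0.101 RPKM after tagmentation and 10.5, 0.103 and 0.709 RPKM after sonication, high in number 1 alone. Zfp143, an activator found at promoters, also peaked there, with 9.35 RPKM after tagmentation and 5.35 RPKM after sonication. Zfp217, Zfp148 and Zfp352, a gene of the 2-cell-like state, did not reach 1 RPKM in any library.

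Of 9 partners of histone-modifying enzymes, all were in the table and 5 could be tested. Each of the 5 was called between numbers, as were 88.1% of all tested genes. Their median log2 fold change between methods was 0.39, with none called. Zfp532, whose human counterpart forms a complex with those of Zmynd8, Zfp592 and Zfp687, had 40.1, 10.1 and 1.72 RPKM after tagmentation and 41.6, 9.23 and 1.29 RPKM after sonication. With either method it was highest in number 1 and lowest in number 3, whereas its partner Zfp592 was listed at 0 in number 1. Zfp451, a SUMO ligase, had 0.0261, 20.3 and 2.95 RPKM after tagmentation and 0.00904, 12.4 and 1.37 RPKM after sonication, and was highest in number 2. Zfp644, a partner of the methyltransferase G9a, stayed under 1 RPKM in every library.

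Of 12 RNA and ribosome proteins, 11 were in the table, and each of these reached 1 RPKM in at least 1 library. The 6 tested genes had a median log2 fold change of 0.09 between methods, and 4 were called between numbers, where the background was 88.1%. Zfp598, a ubiquitin ligase that marks collided ribosomes (known from human ZNF598), had 21.7, 29.5 and 87.4 RPKM after tagmentation and 31.4, 28.3 and 64.5 RPKM after sonication. Zfp622, an assembly factor of the large ribosomal subunit known from its yeast counterpart Rei1, had 13.1, 25.95 and 53.0 RPKM after tagmentation and 15.3, 23.9 and 40.7 RPKM after sonication. Both were highest in number 3 with either method. Zfp593, whose yeast counterpart Bud20 acts on the same subunit, had 7.30, 8.23 and 16.3 RPKM after tagmentation and 13.3, 8.90 and 15.9 RPKM after sonication, and the groups overlapped. Zfp346, which binds double-stranded RNA, was at 29.4 and 35.9 RPKM in tagmentation libraries 2 and 3, against 26.5 and 27.0 RPKM in sonication libraries 2 and 3. In number 1 it had 0.0132 RPKM after tagmentation and was listed at 0 after sonication.

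Of 8 developmental signalling and lineage factors, 6 were in the table, with a median mean level of 0.972 RPKM, and 2 could be tested. Both were called between numbers, the background being 88.1%. Zfp423, a partner of Smad proteins in BMP signalling, had 9.18, 0.177 and 11.9 RPKM after tagmentation and 10.4, 0.139 and 2.44 RPKM after sonication. Zfp110, which binds the neurotrophin receptor p75, had 47.2, 0.187 and 0.886 RPKM after tagmentation, against 34.1, 1.95 and 2.06 RPKM after sonication. Both were near 0 in tagmentation library 2, and Zfp110 passed 1 RPKM there after sonication. Zfp521, which antagonises early B-cell factors, stayed under 1 RPKM in all libraries.

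Some Zfp genes were found in a single number and almost nowhere else. At 1 RPKM or more in both libraries of a number and under 0.1 RPKM in the other 4, there were 14 genes in number 1, 1 in number 2 and 3 in number 3. These are 4.75%, 0.34% and 1.02% of Zfp genes, against 4.72%, 1.19% and 0.86% of all genes. Zfp354a, whose repeat unit is printed above, had 21.1 RPKM in tagmentation library 1 and 14.2 RPKM in sonication library 1. In numbers 2 and 3 it was listed at 0, but for 0.0132 RPKM in sonication library 3. Zfp319 had 10.6 RPKM after tagmentation and 13.1 RPKM after sonication in number 1 and was listed at 0 in the other 4. Zfp36 (tristetraprolin), which brings messenger RNAs with AU-rich elements to decay, had 11.7 RPKM in tagmentation library 2 and 8.16 RPKM in sonication library 2, and at most 0.0902 RPKM elsewhere. In number 3, Zfp523 had 10.5 RPKM after tagmentation and 10.2 RPKM after sonication. Zfp326, which in human belongs to the splicing-linked DBIRD complex, had 11.1 RPKM after tagmentation and 2.99 RPKM after sonication in number 3. Zfp473, which in human acts in histone pre-mRNA processing, had 6.87 RPKM after tagmentation and 4.13 RPKM after sonication there. Both of these were listed at 0 in all 4 libraries of numbers 1 and 2. Zfp647, chosen after its values were seen, was listed at 0 in number 1, had 0.909 RPKM after tagmentation and 0.633 RPKM after sonication in number 2, and had 45.8 RPKM after tagmentation and 28.8 RPKM after sonication in number 3.

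In numbers 2 and 3, more Zfp genes reached 1 RPKM after sonication alone than after tagmentation alone. After tagmentation alone it was 7, 2 and 3 genes in numbers 1 to 3, and after sonication alone 2, 18 and 28. The counts after tagmentation alone are 2.37%, 0.68% and 1.02% of Zfp genes, against 1.26%, 1.13% and 1.77% of all genes. Those after sonication alone are 0.68%, 6.1% and 9.49% of Zfp genes, against 1.44%, 4.38% and 7.05% of all genes. The 18 genes of number 2 had a median of 0.193 RPKM after tagmentation, against 1.702 RPKM after sonication, and the 28 of number 3 had 0.223 and 1.85 RPKM. The values after tagmentation were thus mostly far under the threshold and not just below it. Together they were 39 genes, of which 23 (59.0%) were at 1 RPKM or more in both libraries of number 1, where 34.9% of all Zfp genes were. For all genes the same shares were 63.7% of 1164 genes and 53.8%. The 39 genes were chosen for reaching 1 RPKM after sonication, whereas 45.4% of all Zfp genes reached it in no library. That choice by itself raises their share in number 1. Of the 75 Zfp genes at 1 RPKM in sonication library 2, 49 were also at 1 RPKM in sonication library 1. Of the 93 in sonication library 3, it was 56.

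**Figure D5:**
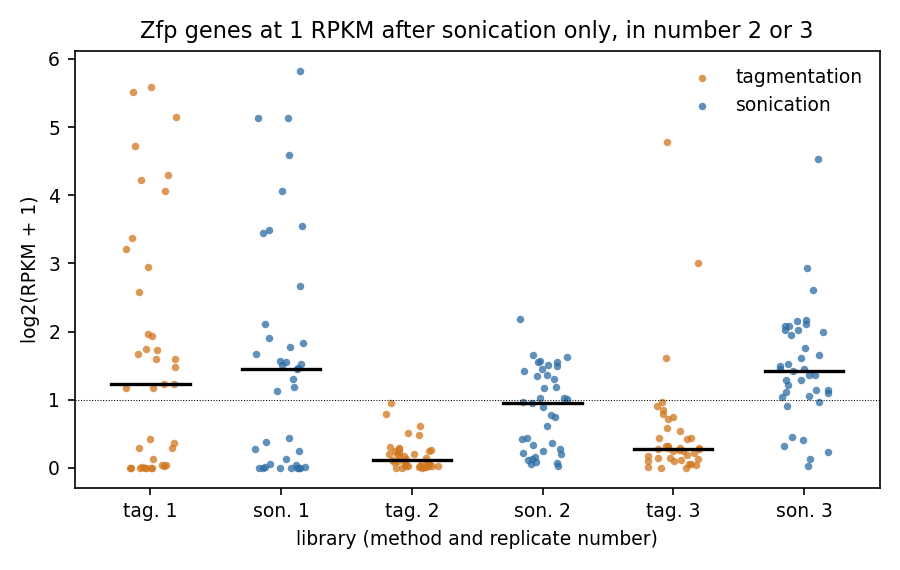
Level, as log2(RPKM + 1), of the 39 Zfp genes that reached 1 RPKM after sonication only in number 2 or 3, in each of the 6 libraries. Each point is a gene and each line a median; the medians are 1.34, 0.0863 and 0.219 RPKM in tagmentation libraries 1 to 3 and 1.74, 0.928 and 1.69 RPKM in sonication libraries 1 to 3.

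The pattern held in both numbers for 7 genes, named here after their values were seen: Zfp110, Zfp281, Zfp534, Zfp655, Zfp809, Zfp868 and Zfp930. All of them were at 1 RPKM or more in both libraries of number 1, as were 75.5% of the 245 genes of the whole table with the pattern in both numbers. Zfp655 had 34.6, 0.426 and 0.956 RPKM after tagmentation, against 22.99, 3.56 and 5.08 RPKM after sonication. Zfp930 had 15.7, 0.241 and 0.202 RPKM after tagmentation, against 10.7, 2.08 and 1.82 RPKM after sonication. Zfp534, a KRAB protein whose reads are not unique, had 2.18, 0.401 and 0.680 RPKM after tagmentation, against 1.89, 1.84 and 2.39 RPKM after sonication. In number 1 tagmentation gave the higher value for all 3, and in numbers 2 and 3 sonication did. Seen from the other side, 12 Zfp genes had 10 RPKM or more in both libraries of number 1 and under 0.5 RPKM in tagmentation libraries 2 and 3. Their median level in number 2 was 0.0588% of that in number 1 after tagmentation, against 0.878% after sonication. In number 3 it was 0.170% and 2.66%. In tagmentation library 2 their median was 0.0106 RPKM. This is under the 0.0251 RPKM of 3 reads at the median length and cannot be told from 0, so the size of the gap is uncertain there. Sonication gave the higher value for 9 of the 12 in number 2 and 10 of the 12 in number 3. Over 433 genes of the whole table chosen alike, it did so for 275 in number 2 and 262 in number 3. Their medians were 0.0614% after tagmentation and 0.483% after sonication in number 2, and 0.0832% and 0.501% in number 3. In RPKM, their medians after tagmentation were 0.0160 in number 2 and 0.0240 in number 3, also under 0.0251. The choice limits the values after tagmentation and not those after sonication in numbers 2 and 3, which by itself favours this direction, so these values are a description only. What produced the pattern was not tested.

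Between the methods, none of the 83 tested Zfp genes was called by limma without the number as a block, and none was under an unadjusted p of 0.05. The background was 0.0% of 6327 genes, of which 18 were under the unadjusted threshold. The median log2 fold change of the Zfp genes was 0.01, with 42 above 0 and 41 below, against 0.03 over all tested genes. None of the 83 had groups of libraries that did not overlap, against a background of 2.4%. Without the filter, 5 of the 295 Zfp genes had such groups. The share over all genes was not computed, so this count does not set Zfp genes apart. These were Zfp808, Zfp938, Zfp101, Zfp820 and Zfp959, all lower after tagmentation, with means of 0.0269 to 0.524 RPKM. The lowest, Zfp959, had only 1, 1 and 0 reads after tagmentation, against 2, 3 and 1 after sonication. The highest, Zfp808, had 15, 14 and 18 reads, against 29, 59 and 85. With the number as a block, 2 Zfp genes were called (2.41%), 1 higher and 1 lower, against a background of 3.29% (1.58% higher and 1.71% lower).

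Zfp617 had 8.65, 16.2 and 6.07 RPKM after tagmentation, against 5.09, 7.91 and 1.06 RPKM after sonication. It was higher after tagmentation in each number, although the groups overlapped. Its log2 fold change was 1.13, with an SE of 1.19 and an adjusted p of 1.00 in limma without the block and an SE of 0.29 and an adjusted p of 0.0105 with it. Zfp868 had 2.31, 0.130 and 0.353 RPKM after tagmentation, against 1.96, 1.67 and 3.07 RPKM after sonication. It was slightly higher after tagmentation in number 1 and lower in numbers 2 and 3. Its log2 fold change was -0.89, with an adjusted p of 1.00 in limma without the block and 0.0455 with it. Of the 212 degrees of freedom behind each spread with the block, 210 came from genes of like level. Both calls are lost with the block at a pseudocount of 0.1, without the filter, after median-ratio or quantile scaling, with a GC correction, and without number 2 or number 3; that of Zfp868 is also lost at a pseudocount of 5. The direction held throughout, and with the block the log2 fold change lay between 0.67 and 1.40 for Zfp617 and between -1.84 and -0.30 for Zfp868. Median-ratio and quantile scaling and the GC correction left it at 1.11, 1.24 and 1.14 for Zfp617 and at -0.90, -0.77 and -0.99 for Zfp868. Over all alternatives run with the block, the adjusted p lay between 0.00832 and 0.999 for Zfp617 and between 0.0113 and 0.999 for Zfp868 (limma).

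With the block in numbers 2 and 3 alone, 15 of the 83 Zfp genes were called (18.1%), against a background of 16.6%. Higher after tagmentation were 6 (7.23%), against a background of 10.5%, and lower were 9 (10.8%), against 6.15%. The lower ones were the 7 genes named above, with Zfp932 and Zfp960, at log2 fold changes of -1.66 (Zfp655) to -0.96 (Zfp932). The 7 genes were picked above by their values in these same libraries, so their calls are no separate support for the pattern. The filter counted all 6 libraries and was not redone here, so a gene could pass it through number 1. Zfp655 had an SE of 0.25 and an adjusted p of 0.00765 (limma), and over all 3 numbers its log2 fold change was -0.92 with an adjusted p of 0.0543. The higher ones were Zfp617 (1.36), Zfp362 (1.00), Zfp106 (0.83), Zfp330 (0.83), Zfp512 (0.73) and Zfp207 (0.71). Zfp106, an RNA-binding protein needed in motor neurons, had 15.1, 10.7 and 20.4 RPKM after tagmentation and 12.004, 7.54 and 8.32 RPKM after sonication. Zfp330, a nucleolar protein, had 138, 53.9 and 35.998 RPKM after tagmentation and 120, 38.8 and 15.2 RPKM after sonication. Both were higher after tagmentation within each number while the groups overlapped. Zfp960, Zfp932 and Zfp330 shared 89.2%, 72.6% and 29.5% of their 31-base words with other genes, which leaves their levels uncertain, whereas Zfp655, Zfp207 and Zfp106 shared 0.7% or less. These fits have 2 libraries per method, and 8.44 of the 9.44 degrees of freedom behind each spread came from genes of like level.

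The partners of KRAB proteins were not Zfp genes and were read for context. All 17 listed genes of the corepressor pathway were in the table, of which 15 could be tested; 13 were called between numbers, against a background of 88.1%, and with the block 1 (Hdac1) was called between methods, against 3.29%. Trim28 had 180, 324 and 391 RPKM after tagmentation and 317, 346 and 368 RPKM after sonication, above the highest Zfp gene in all libraries. Setdb1 had 11.01, 25.6 and 0.287 RPKM after tagmentation and 12.03, 18.7 and 0.699 RPKM after sonication, and was low in number 3. Of 10 embryonic stem cell markers, 8 were at 1 RPKM or more in all 6 libraries and all 10 could be tested. Of 8 fibroblast markers, 5 were in the table, with Col1a1, Col1a2 and Col3a1 under 1 RPKM in every library. Of the other two, Vim, which many cell types express, was at 117 to 187 RPKM, and Thy1 reached 9.55 RPKM in tagmentation library 1 and 12.1 RPKM in sonication library 1. Their part in the levels of Zfp genes was not tested.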

How the data were processed

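RNA-seq values were available for 3 tagmentation and 3 sonication libraries, grouped and numbered by their labels. RPKM values, computed by the authors, were deposited with the number of alignments per library, per the file headers. In each library, 60 to 94 values above 0 lay under 1e-04 RPKM, below the worth of 1 read. The submitters' processing notes name CASAVA 1.7.0, Partek and the build mm9, with no roles. Which aligner and gene models were used, and how reads with several matches were counted, is not given in the sources used here. Per the labels' protocols, tagmentation used 100 ng of cDNA and 13 PCR cycles.

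The Zfp genes and gene lists were chosen with earlier results of these data known. Values were tested as log2(RPKM + 1) in limma 3.58.1 (R 4.3.3) by lmFit and two-sided moderated tests with a trend in the spread, with Benjamini-Hochberg adjustment over all genes tested. Genes that reached 1 RPKM in 3 or more of the 6 libraries were kept, 6327 in all. A fold change on this scale understates the change of low genes. The first fit had the method as its only term, and an alternative added the replicate number as a block. The labels do not say that libraries of a number share a cDNA. Between the methods, deviations from the group means had correlations of 0.952, 0.969 and 0.934 where the number was shared and of -0.175 or less where it was not, so the numbers were taken as pairs. Deviations from a group mean cancel out within the group. Once like numbers agree, this by itself makes the correlations of unlike numbers negative, so the pairing rests on the values for shared numbers. The script was tested on simulated data. Detection counts were compared by an exact permutation test (scipy 1.17.1). Linkers and shared 31-base words were read from GENCODE transcripts (GRCm38). This is not the authors' build, and no coordinate of theirs was converted.

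Named genes were the 12 with the highest mean, those called in either fit, those of the lists, those with the widest and narrowest range of number means, those found in a single number, and those with the largest and smallest fold change of 1 direction. Not all of these are described, and genes named outside the rule are said to be. The alternatives were other pseudocounts, filters, scalings and detection thresholds, a GC correction, and leaving out libraries.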

Additional observations from a re-analysis of the deposited data

How the results depend on the processing

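The difference in detected Zfp genes (-12.0) ranged from -30.0 to -2.0 under other thresholds, scaling, the replicate block (exact sign-flip p = 0.5) and leaving out 1 library, and turned to 3.33 at 5 RPKM. The share found in both libraries of a number (77.9%) stayed between 70.9% and 83.2%. Between numbers, 77 of 83 Zfp genes were called (92.8%, against 88.1% of all tested genes). Without the filter it was 159 of 295, a lower share (53.9%, against 67.0% of all genes). The other settings gave 55 to 76, the 55 with the filter at a mean of 5 RPKM, which tested another set of genes. For these the share over all genes is not given here, so the counts do not set Zfp genes apart.

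Without the block, 0 Zfp genes were called between methods under any setting run. Those fits count the differences between numbers as error, with an SE of 1.19 for Zfp617 against 0.29 with the block. Their constant 0 therefore says little about the methods. With the block the count was 2, with it and a pseudocount of 5 it was 1 (Zfp617), with it and a filter at a mean of 5 RPKM it was 2 (Zfp617 and Zfp655), and with it and quantile normalization it was 2 (Zfp207 and Zfp428). It was 0 with a pseudocount of 0.1, no filter, median-ratio scaling or the GC correction. Keeping only genes that share under 10% of 31-base words leaves out both called genes, so its count of 0 says nothing of the calls. Leaving out 1 number gave 0 to 15, the 15 without number 1. The share over all tested genes was 3.29% with the block and 16.6% with it and without number 1. For the other settings that share is not given here, so their counts do not set Zfp genes apart. The fits of the block with another pseudocount, filter, scaling, GC correction or set of genes were chosen after seeing the data.

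The median log2 fold change (0.008) was -0.046 at a pseudocount of 0.1, 0.119 with the filter at a mean of 5 RPKM, and -0.302 to 0.078 without 1 library (-0.039 to 0.07 without 1 number, with the block). Zfp428, at -0.71 in all libraries, ranged from -2.37 to 1.12 without 1 library, with 1.12, 0.18 and 0.05 without tagmentation library 1, sonication library 2 and sonication library 3; with the block it was -0.54, -0.80 and -0.81 without number 1, 2 and 3. The cause was not tested. At the median length of 3451 bases, levels under 3 reads, 0.0251 to 0.0461 RPKM by library, cannot be told from 0. This limit is lower for longer genes and higher for shorter ones.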

Other observations

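Zfp428, one of the 4 highest Zfp genes, was near the threshold in number 1 and high in the others, with 0.776, 86.4 and 72.5 RPKM after tagmentation, against 2.72, 127 and 105 RPKM after sonication. Zfp580 was low in number 2 only, with 31.7, 1.65 and 70.5 RPKM after tagmentation and 51.4, 2.06 and 55.3 RPKM after sonication. Zfp639 was low in number 3 only, with 62.3, 36.9 and 0.793 RPKM after tagmentation and 67.3, 29.0 and 0.798 RPKM after sonication. Each number was the low one for 1 of these genes with either method, while Zfp428 was lower after tagmentation in each number.

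The choice made for number 1 asked for 10 RPKM or more in both its libraries and under 0.5 RPKM in the tagmentation libraries of the others. Made alike for the other numbers, it left 1 of the 295 Zfp genes for number 2 (Zfp750). For number 3 it left 2 (Zfp523 and Zfp956). Among all 12331 genes, 41 qualified for number 2 and 70 for number 3. Zfp750 had 13.2 RPKM in tagmentation library 2 and 10.1 RPKM in sonication library 2. Zfp956 had 46.2 RPKM in tagmentation library 3 and 27.5 RPKM in sonication library 3. All 3 of these Zfp genes were listed at 0 in number 1 after tagmentation and after sonication. The genes were chosen after their values were seen.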
